A study of Mus musculus with 8 samples.

Results

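The 10 genes that encode the core of extracellular TGF-beta signalling were described in the skeletal muscle of 8 mice. They were the ligands Tgfb1, Tgfb2 and Tgfb3, the receptors Tgfbr1, Tgfbr2 and Tgfbr3, and the latency proteins Ltbp1, Ltbp2, Ltbp3 and Ltbp4. The members are listed by gene symbol, with earlier results of these data known, and all 10 were found among the 55487 genes of the count table. The 8 samples formed 1 group. Each came from a male C57BL/6J mouse 10 weeks of age that received K14Q MOTS-c at 15 mg/kg/day, split over 2 intraperitoneal injections a day, while its hindlimbs were immobilized in casts for 8 days. MOTS-c is a peptide encoded in the mitochondrial genome, and K14Q is a naturally occurring form of it with 1 exchanged residue. Untreated, non-immobilized and wild-type MOTS-c-treated libraries were not analysed here. No value below is therefore an effect of immobilization or of the peptide, and the comparisons are between genes and between mice. The sample labels name the vastus lateralis, whereas the series' design text and the study's methods name the gastrocnemius, and which of them was sampled was not tested.

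TGF-beta ligands are secreted in a latent form, in which the mature dimer stays bound to its own cleaved propeptide. Latent TGF-beta binding proteins join that complex covalently and anchor it in the extracellular matrix, from which integrins and proteases can release the active ligand. The ligand binds the type II receptor, which recruits and phosphorylates the type I receptor, and the type I receptor phosphorylates Smad2 and Smad3. In skeletal muscle the pathway is known for its part in fibroblast activation, matrix deposition and the restraint of muscle growth.

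Total counts per library ran from 23985356 to 33012497, with a median of 29419182.5. The counts are reads without molecular identifiers, so counting errors given below cover sampling of reads only. Muscle fibre markers were very high in every library, with Myh4, a fast myosin heavy chain, between 839797 and 2063673 normalized counts and Ckm, muscle creatine kinase, between 158480 and 292044. Non-fibre cells were also represented, and none of the 8 fibroblast, 8 endothelial and 8 macrophage markers had under 10 counts in any library. The summed level of the fibroblast markers ran from 10294 to 19186 normalized counts, that of the endothelial markers from 4180 to 5923, and that of the macrophage markers from 1746 to 4373. Of 6 tendon markers, 4 passed the same minimum, and the sum of all 6 ran from 703 to 3398. In whole muscle, fewer cells of a type and less RNA per cell cannot be told apart.

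The upstream windows of Tgfb1 and Tgfb2 are shown first because these 2 ligands differed most in how far their levels spread between mice. Each is the 250 bases before the annotated start, from RefSeq on GRCm38.p6, in the direction of the gene. Capitals mark the matches found on either strand. In Tgfb1 these are GGGCGG, the GC box bound by the factor Sp1, read as CCGCCC where it lies on the opposite strand. In Tgfb2 they are TATAAA, a core promoter element bound by the basal transcription machinery, and CAGAC, a core of Smad-binding elements. The Tgfb1 window lies at chr7:25686752-25687001 on the plus strand and the Tgfb2 window at chr1:186705990-186706239 on the minus strand.
Tgfb1: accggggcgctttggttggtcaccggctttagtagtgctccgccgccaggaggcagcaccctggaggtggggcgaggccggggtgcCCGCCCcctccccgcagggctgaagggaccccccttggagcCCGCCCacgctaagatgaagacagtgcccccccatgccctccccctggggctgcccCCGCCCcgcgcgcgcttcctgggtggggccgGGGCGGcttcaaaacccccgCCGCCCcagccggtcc
Tgfb2: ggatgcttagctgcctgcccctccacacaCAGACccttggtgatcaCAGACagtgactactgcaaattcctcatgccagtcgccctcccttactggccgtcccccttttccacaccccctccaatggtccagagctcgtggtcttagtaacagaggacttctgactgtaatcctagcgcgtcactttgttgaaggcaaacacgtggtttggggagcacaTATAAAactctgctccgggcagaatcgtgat

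The Tgfb1 window was 75.2% G and C and held 5 matches to GGGCGG and none to TATAAA or CAGAC. The Tgfb2 window was 53.6% G and C, against a median of 52.4% over all 32851 promoter windows of this length, and held TATAAA once, 31 to 26 bases before the start, CAGAC 2 times and GGGCGG not at all. Over all windows, GGGCGG was found in 32.7%, TATAAA in 12.4% and CAGAC in 42.2%. A match describes the letters and is not evidence of binding. The Tgfb2 window also overlaps an exon of the antisense gene Gm29491. Windows were matched for 8 of the 10 genes, and Tgfb3 and Tgfbr3 had none.

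Tgfb3 was the ligand with the highest level, and Tgfb2 the one that varied most between mice. Tgfb1 (ENSMUSG00000002603, GRCm38 chr7:25687002-25705077) had 147 ± 13.5 normalized counts (SD, n = 8), with 130 as the lowest, 151 as the median and 163 as the highest. Its coefficient of variation was 9.18%, against 8.36% that the sampling of reads alone would give, so the spread of Tgfb1 between mice was close to counting error.

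Tgfb2 (ENSMUSG00000039239, chr1:186622792-186705989) had 589 ± 198 normalized counts (SD, n = 8), with 519, 848, 339, 386, 732, 442, 822 and 623 in mice 1 to 8. Mice 2, 5 and 7 were highest, and the highest mouse had 2.50 times the level of the lowest. Mice 3 and 4, the lowest in Tgfb2, also had the lowest summed fibre markers. These were 1691843 and 1872025 normalized counts, against 2458969 to 3415708 in the others, and a relation of Tgfb2 to fibre content was not tested. Its coefficient of variation of 33.6%, against 4.36% from counting, was higher than that of 92.8% of the 15135 genes that reached 10 counts in each library. Tgfb3 (ENSMUSG00000021253, chr12:86056745-86079041) had 1091 ± 148 normalized counts (SD, n = 8), from 890 in mouse 1 through a median of 1105 to 1362 in mouse 4.

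Levels of different genes were compared per kb of exon, taking all annotated exons of a gene together. Tgfb3 made up 71.2% ± 6.28 of the summed ligand level per kb (SD, n = 8), Tgfb2 22.3% ± 6.29 and Tgfb1 6.47% ± 0.854. The order Tgfb3, Tgfb2, Tgfb1 was the same in all 8 mice. The level of Tgfb3 per kb was between 8.22 and 13.4 times that of Tgfb1, and the ratio of Tgfb2 to Tgfb3 ran from 0.165 in mouse 4 to 0.443 in mouse 2. The sizes of these shares depend on the length used. Per kb of the longest transcript, the share of Tgfb3 was 65.3% and that of Tgfb1 11.6%, the ratio of Tgfb3 to Tgfb1 ran from 4.19 to 6.83, and from counts without division by length the share of Tgfb3 was 60.1%.

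**Figure D1:**
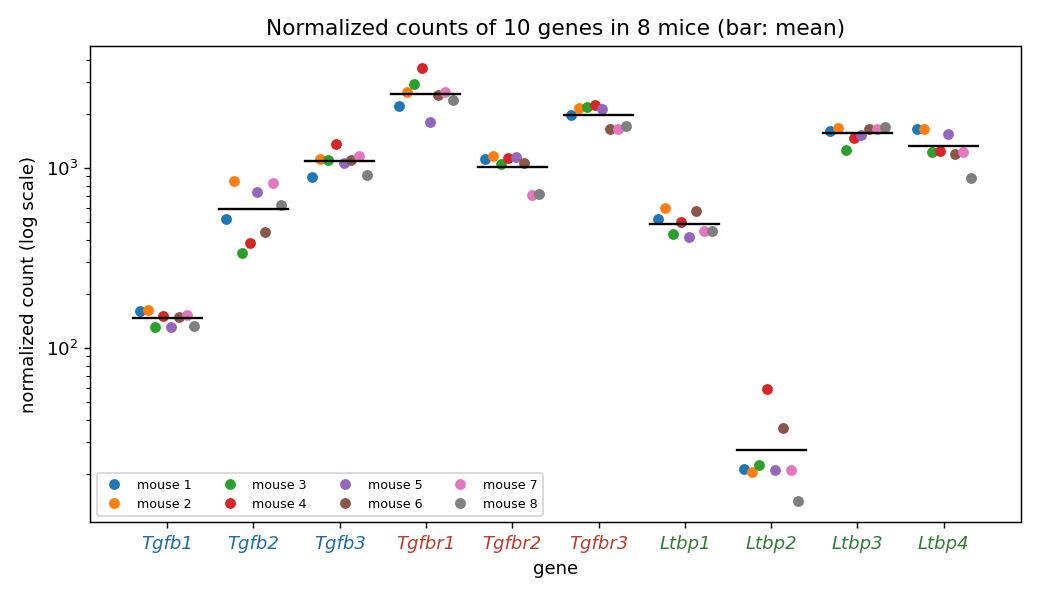
Normalized counts (log axis) of the 10 genes in each of the 8 mice, with 1 colour per mouse, a horizontal bar at the mean, and gene names coloured by class (blue ligands, red receptors, green latency proteins). Tgfb2 runs from 339 to 848 between mice, Tgfbr2 is at 711 and 714 in mice 7 and 8 and between 1058 and 1168 in the others, and Ltbp2 lies far below the other genes.

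Among the receptors, Tgfbr1, the type I receptor kinase, had the highest mean level, above Tgfbr3 per kb in all mice but mouse 5, where the ratio of Tgfbr1 to Tgfbr3 was 0.850. Tgfbr1 (ENSMUSG00000007613, chr4:47353222-47414931) had 2592 ± 532 normalized counts (SD, n = 8), from 1797 in mouse 5 through a median of 2586 to 3614 in mouse 4. Tgfbr3 (ENSMUSG00000029287, chr5:107106570-107289629), the co-receptor betaglycan that presents ligand to the type II receptor and is needed most for Tgfb2, had 1965 ± 252 normalized counts (SD, n = 8), with 1655 as the lowest, 2043 as the median and 2240 as the highest. Mice 6, 7 and 8 had the lowest Tgfbr3 levels, between 1655 and 1720, and the next lowest was mouse 1 at 1967.

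Tgfbr2 (ENSMUSG00000032440, chr9:116084293-116175360), the type II receptor that first binds the ligand, had 1016 ± 191 normalized counts (SD, n = 8), with 1123, 1168, 1058, 1130, 1151, 1070, 711 and 714 in mice 1 to 8. Mice 7 and 8 stood below the other 6, which lay within a narrow range. Per kb, Tgfbr1 made up 48.1% ± 5.66 of the summed receptor level (SD, n = 8), Tgfbr3 36.7% ± 3.60 and Tgfbr2 15.2% ± 2.68. The type I receptor transcript therefore stood at 1.96 to 4.65 times the level of the type II receptor transcript per kb, with the lowest ratio in mouse 5 and the highest in mouse 7.

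The latency proteins spanned the widest range of levels in relative terms, as the ratio of the highest to the lowest mean. Ltbp3 (ENSMUSG00000024940, chr19:5740904-5758532), which binds all 3 latent ligands, had 1566 ± 143 normalized counts (SD, n = 8), from 1263 in mouse 3 through a median of 1628 to 1700 in mouse 8. Its coefficient of variation of 9.16% was the lowest of the 10 genes. Ltbp4 (ENSMUSG00000040488, chr7:27305136-27337692), which binds latent Tgfb1 and takes part in elastic fibre assembly, had 1326 ± 267 normalized counts (SD, n = 8), with 1654, 1642, 1220, 1240, 1548, 1194, 1225 and 885 in mice 1 to 8. Mice 1, 2 and 5 formed the upper end and mouse 8 the lower end.

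Ltbp1 (ENSMUSG00000001870, chr17:75005568-75392512), the founding member of the family, which also binds all 3 latent ligands, had 492 ± 68.5 normalized counts (SD, n = 8), with 415 as the lowest, 474 as the median and 599 as the highest. Ltbp2 (ENSMUSG00000002020, chr12:84783212-84876532), a microfibril protein that does not bind latent TGF-beta, was low, with 21.2, 20.5, 22.4, 59.4, 21.1, 36.2, 20.97 and 14.2 normalized counts in mice 1 to 8 and 27.0 ± 14.5 overall (SD, n = 8). Its coefficient of variation was 53.5%, against 21.2% from counting, and mice 4 and 6 were high. The lowest library held 13 counts of it, so all 10 members reached 10 counts in each library.

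Per kb, Ltbp4 made up 47.7% ± 5.49 of the summed latency protein level (SD, n = 8), Ltbp3 40.7% ± 4.93, Ltbp1 10.8% ± 1.21 and Ltbp2 0.783% ± 0.441. The ratio of Ltbp3 to Ltbp4 ran from 0.695 to 1.37, and Ltbp4 was the higher in 7 of the 8 mice, all but mouse 8. Which of the pair leads depends on the length: per kb of the longest transcript Ltbp3 had 46.0% and Ltbp4 41.0%, and from counts Ltbp3 had 46.1% and Ltbp4 38.6%.

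**Figure D2:**
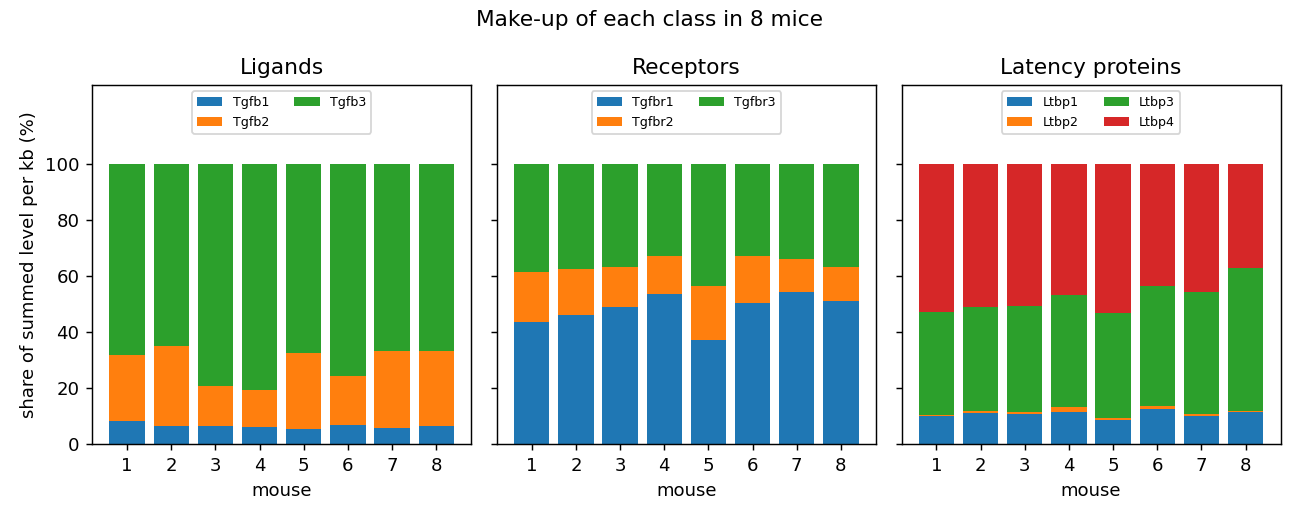
Stacked bars give, for each mouse, the share (%) of each gene in the summed level per kb of its class, for ligands, receptors and latency proteins. Tgfb3 holds between 64.9% and 80.6% of the ligand level in every mouse, Tgfbr1 between 37.2% and 54.3% of the receptor level, and Ltbp4 falls to 37.2% of the latency protein level in mouse 8.

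Across all 10 genes, the level per kb descended from Tgfbr1 (397 ± 81.4 normalized counts per kb, SD, n = 8) through Tgfb3 (323 ± 43.7), Tgfbr3 (300.2 ± 38.6), Ltbp4 (205 ± 41.3), Ltbp3 (173 ± 15.8), Tgfbr2 (124 ± 23.3), Tgfb2 (102 ± 34.1), Ltbp1 (46.0 ± 6.41) and Tgfb1 (29.1 ± 2.67) to Ltbp2 (3.30 ± 1.77). With this length the last 3 steps, from Tgfb2 to Ltbp1, from Ltbp1 to Tgfb1 and from Tgfb1 to Ltbp2, separated neighbours whose ranges over mice did not overlap. Of the neighbours whose ranges overlapped, Tgfb3 was above Tgfbr3 in 4 of 8 mice and Tgfbr2 above Tgfb2 in 5 of 8, and these pairs were not separated. Tgfbr3 was above Ltbp4, and Ltbp3 above Tgfbr2, in all 8 mice. With the longest transcript as the length, 6 of the 10 genes kept their rank: Tgfb3 and Tgfbr3 changed places, as did Ltbp3 and Ltbp4. The levels per kb of Ltbp3 and Ltbp1 were then 273 and 73.7. The ranges of Tgfb2 and Ltbp1 and of Ltbp1 and Tgfb1 overlapped with that length, although each pair kept its order in all 8 mice, and the ranges of Ltbp4 and Tgfbr2 and of Tgfb1 and Ltbp2 did not overlap.

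**Figure D3:**
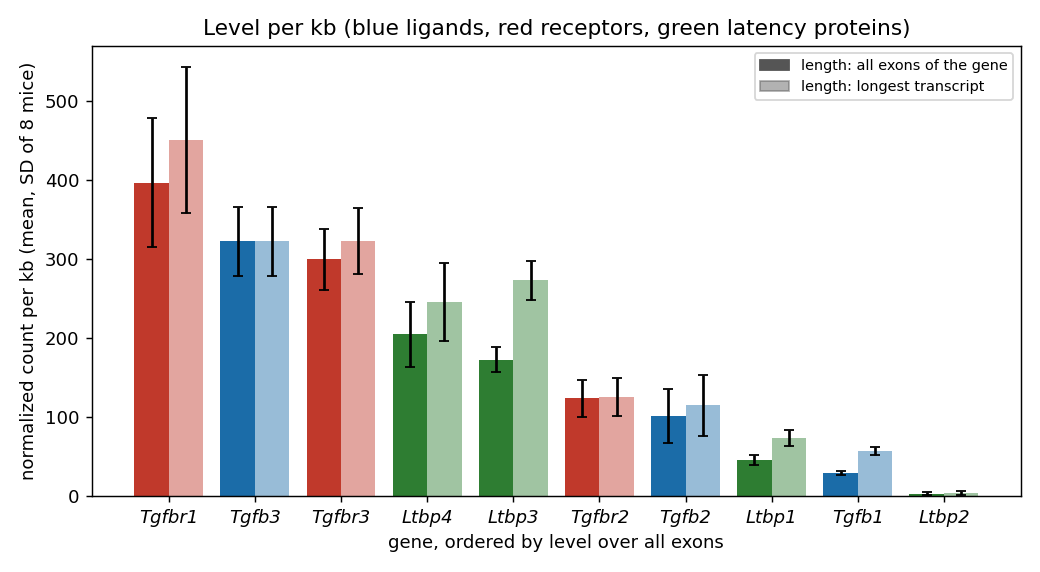
Bars give the mean normalized count per kb over 8 mice with its SD for each gene, in dark colour over all exons of the gene and in pale colour over its longest transcript (blue ligands, red receptors, green latency proteins). Tgfbr1 is at 397 and Ltbp2 at 3.30 over all exons, and Tgfb1 moves from 29.1 to 57.0 when only its longest transcript is counted.

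The 10 genes varied between mice about as much as other genes did. Their median coefficient of variation was 16.4%, against 15.6% over the 15135 genes, and 5 of the 10 were above that median. Their median level was 1053 normalized counts, against 308 over those genes, so this comparison of variation is not matched for level. Some members share exon sequence with a neighbour, and whether the authors' counting used strand is not given in the sources used here. Tgfbr3 shares 297 exon bases (4.54% of its exons) with Gm43422 on the same strand, which had 116 normalized counts. Gm48008, Gm29491 and D030025P21Rik, which overlap exons of Tgfb3, Tgfb2 and Ltbp2 on the opposite strand, each had a mean under 3 normalized counts.

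To ask whether the members moved with the content of other cell types, each gene was related across the 8 mice to a score for fibroblasts, endothelial cells and macrophages, which is the mean z-score of 8 marker genes. No member is among the markers. The fibroblast score was highest in mouse 2 (1.02) and lowest in mouse 8 (-1.20), and the macrophage score was highest in mouse 4 (1.08) and lowest in mice 7 and 8 (-1.43 and -1.20). The endothelial score was highest in mouse 2 (0.953) and lowest in mouse 6 (-1.13). The scores were not independent, with r = 0.853 between fibroblast and macrophage scores, 0.622 between fibroblast and endothelial scores and 0.953 between fibroblast and tendon scores over the 8 mice, so a relation to one of them cannot be told apart from a relation to the others.

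No member passed the threshold on any of the 3 scores in limma, with Benjamini-Hochberg adjustment over 15127 genes and an adjusted p below 0.05. For the fibroblast score, 0 of 10 members were called, beside 106 of all genes (0.701%), 99 of which had a positive slope. At an unadjusted p below 0.05 there were 2 of 10 members and 2586 genes. For the endothelial score, 0 of 10 members and 0 genes (0%) were called, and 2 members and 1378 genes were below an unadjusted 0.05. For the macrophage score, 0 of 10 members were called, beside 36 genes (0.238%), and 3 members and 2385 genes were below an unadjusted 0.05. The edgeR quasi-likelihood test on the recovered counts also called 0 members on each score, beside 66, 0 and 4 genes called in all. Below an unadjusted 0.05 it gave 3, 2 and 3 members and 2484, 1357 and 2322 genes. The median slope of the members, in log2 normalized counts per SD of the score, was 0.10 for the fibroblast, 0.025 for the endothelial and 0.088 for the macrophage score, against -0.0042, -0.0072 and -0.00090 over all genes. Slopes were positive for 8, 6 and 8 of the 10 members, beside 48.7%, 47.1% and 49.7% of all genes. On the endothelial score, 3 of 10 members had a positive slope without mouse 2 and their median was -0.053.

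Tgfbr2 came nearest to the threshold. Its slope on the macrophage score was 0.29 ± 0.051 log2 normalized counts per SD (SE, n = 8, limma adjusted p = 0.0505), with a Pearson's r of 0.944 (two-sided exact permutation p = 0.0105) and a Spearman's rho of 0.714 (p = 0.0576, by the same exact test). This relation rests on mice 7 and 8, the farthest from the median score: without both, r was 0.334 and the limma slope 0.03 (adjusted p = 0.9998), an alternative chosen after seeing the data. Under other settings Tgfbr2 passed, with a limma adjusted p of 0.0489 with TMM factors, 0.0442 without the filter on low counts, 0.0341 with a median in place of a mean in the score, and 0.0452 without mouse 4. On the fibroblast score the slope of Tgfbr2 was 0.26 ± 0.062 (SE, n = 8, limma adjusted p = 0.0799), with r = 0.854 (exact permutation p = 0.00206), a rho of 0.881 (p = 0.00724 by the exact test) and r = 0.759 without mice 2 and 8. With a median score its limma adjusted p there was 0.0350, and without mice 7 and 8 its slope was 0.04 (adjusted p = 0.829).

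Ltbp4 had a slope of 0.25 ± 0.066 on the fibroblast score (SE, n = 8, limma adjusted p = 0.105), with r = 0.822 (exact permutation p = 0.0102), a rho of 0.857 (p = 0.0107 by the exact test) and r = 0.536 without mice 2 and 8. Without mouse 8 alone that slope was 0.15 (limma adjusted p = 0.670). On the endothelial score Ltbp4 had a slope of 0.21 ± 0.078 (SE, n = 8, limma adjusted p = 0.468) and Tgfbr3 one of 0.15 ± 0.056 (limma adjusted p = 0.484). Their r there was 0.702 for Ltbp4 (exact permutation p = 0.0506, adjusted 0.592) and 0.773 for Tgfbr3 (exact permutation p = 0.0351, adjusted 0.580). The slope of Ltbp2 on the macrophage score was 0.39 ± 0.17 (SE, limma adjusted p = 0.280), and 0.18 without mouse 4. Tgfb2 had a slope of -0.24 ± 0.14 on the macrophage score (SE, limma adjusted p = 0.416), and -0.125 without mouse 7. The slopes of Ltbp3 lay between -0.053 and -0.00099 on the 3 scores, with limma adjusted p between 0.693 and 0.996. A p that misses the threshold does not show that a gene is unrelated to a score.

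**Figure D4:**
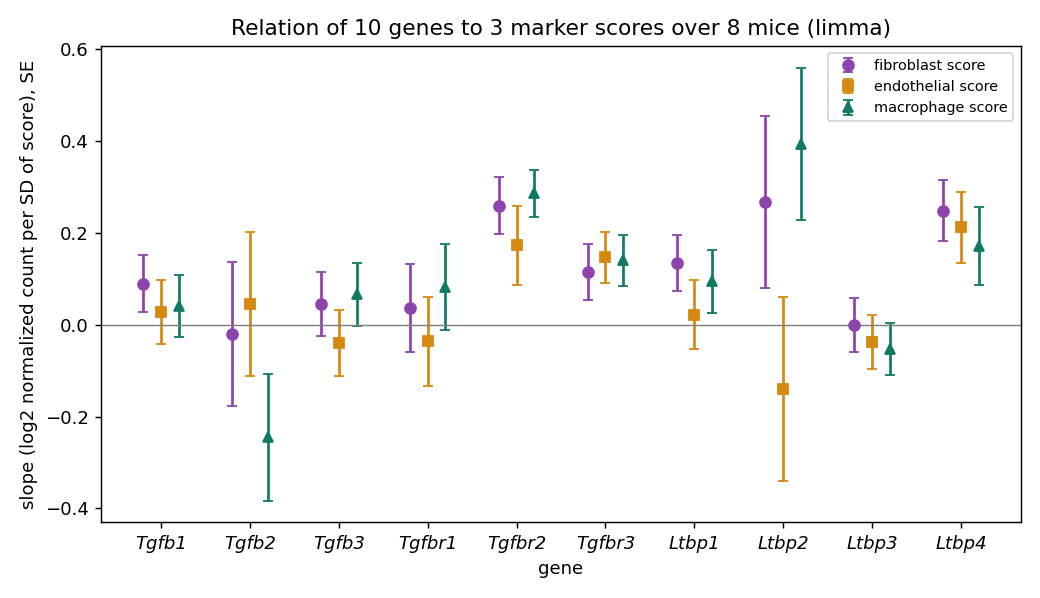
Slopes from limma (log2 normalized count per SD of the score) with their SE for each gene on the fibroblast (circles), endothelial (squares) and macrophage (triangles) scores over 8 mice. The slopes of Tgfb1, Tgfbr2, Tgfbr3, Ltbp1 and Ltbp4 lie above 0 on all 3 scores, Tgfb2 is lowest at -0.24 on the macrophage score, and none passed the adjusted threshold.

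**Figure D5:**
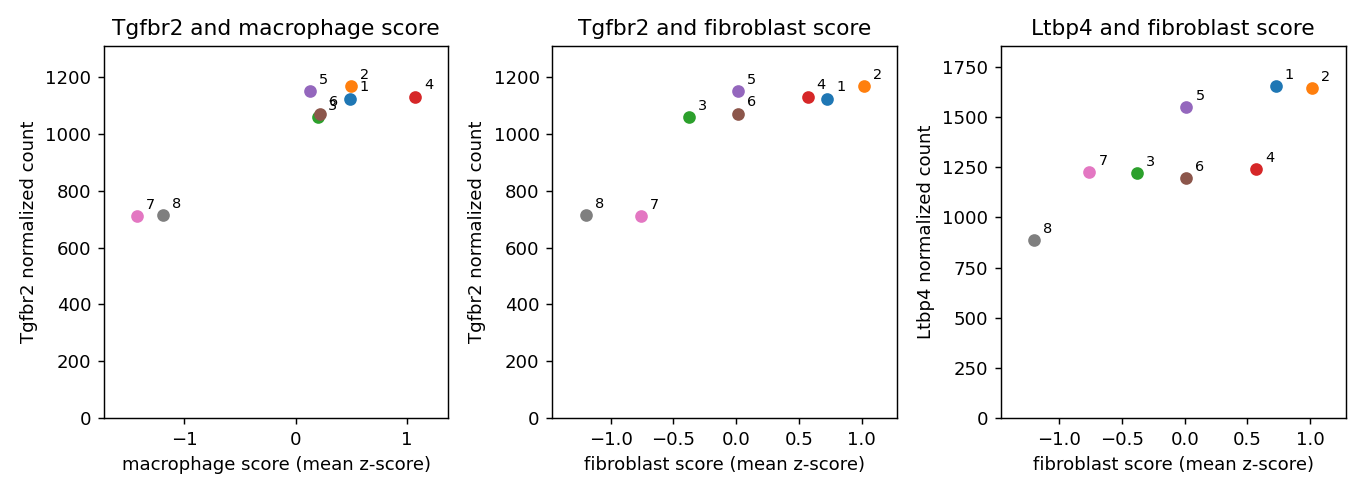
Normalized counts of Tgfbr2 against the macrophage and the fibroblast score and of Ltbp4 against the fibroblast score (mean z-score of the markers), with 1 numbered point per mouse. Mice 7 and 8 are the only mice below 1058 for Tgfbr2 and have the lowest scores, whereas the Ltbp4 counts of mice 3, 4, 6 and 7 lie between 1194 and 1240 over a wide range of fibroblast scores.

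The wider pathway was read from a list of 34 genes, of which 31 had enough counts to be tested and Fbn2, Bambi and Tgif2 did not. On the fibroblast score 4 of the 31 passed in limma, all with positive slopes, and none with a negative slope, beside the 0.654% of all genes that passed with a positive slope. On the endothelial and macrophage scores 0 of 31 passed, although Fmod, with a limma adjusted p of 0.0505 on the macrophage score, passed there with TMM factors (0.0489), without the count filter (0.0174), with a median score (0.0287) and without mouse 4 (0.0277). The 4 were matrix genes: Fmod, fibromodulin, a proteoglycan that binds collagen and TGF-beta (slope 1.23 ± 0.13, adjusted p = 0.00958), Fn1, fibronectin (0.71 ± 0.11, adjusted p = 0.0180), Aspn, asporin, a proteoglycan that binds TGF-beta (0.46 ± 0.066, adjusted p = 0.0168), and Tgfbi, a matrix protein induced by TGF-beta (0.36 ± 0.070, adjusted p = 0.0470). Fmod ran from 211 normalized counts in mouse 8 to 2853 in mouse 1. Fibroblasts make these matrix proteins, and the fibroblast markers moved with the tendon markers across mice, so the part of either cell type in these slopes was not tested. Bgn, biglycan, a related proteoglycan named here after its values were seen, had a slope of 0.42 ± 0.085 (limma adjusted p = 0.0552) and passed without the count filter (0.0318) and without mouse 3 (0.0499). The edgeR test passed 3 of the 4, with Tgfbi at an adjusted p of 0.0625. The exact permutation test passed none of them, since its smallest adjusted p over all genes was 0.0804. Without mice 7 and 8 all 4 had a limma adjusted p of 0.669, and the slope of Fmod was 0.50. None of the 4 passed in limma without mouse 8, when the adjusted p was between 0.131 and 0.316, and 0 genes of the whole table were then called, with the slope of Fn1 at 0.46. Without mouse 1 Aspn (adjusted p = 0.0684), Fn1 (0.0716) and Tgfbi (0.117) missed the threshold in limma, and without mouse 2 Fn1 (0.0564) and Tgfbi (0.155) did. Tgfbi missed it in 7 of the 8 fits that left out a mouse, all but the one without mouse 5.

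None of the tested genes of latency and activation passed, nor did the accessory receptors. Fbn1, fibrillin-1, the microfibril protein to which latency proteins attach, had a level from 266 to 1262 normalized counts and a slope of 0.57 ± 0.15 on the fibroblast score (limma adjusted p = 0.111), which was 0.35 without mouse 8 (adjusted p = 0.665). Thbs1, thrombospondin-1, an activator of latent TGF-beta, ran from 220 to 1635 (slope 0.49 ± 0.24, limma adjusted p = 0.327), and its slope was 0.11 without mouse 8 and 0.78 without mouse 2. Itgav, the integrin alpha V chain that takes part in release of the ligand, was among the steadier genes of the list, from 767 to 949 (slope 0.06 ± 0.049, limma adjusted p = 0.553, and 0.016 without mouse 8). Eng, endoglin, an endothelial co-receptor, ran from 438 to 649 (slope 0.12 ± 0.060, limma adjusted p = 0.326, and 0.049 without mouse 8).

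Of the receptor-activated Smads, Smad3 exceeded Smad2 per kb, with 352 ± 98.2 normalized counts per kb (SD, n = 8) against 53.0 ± 5.93. Smad4, the shared partner of both, stood at 451 ± 58.0 and the inhibitory Smad7 at 31.1 ± 7.07 normalized counts per kb. In normalized counts, Smad3 ranged from 982 in mouse 5 to 2756 in mouse 2, and Smad7 from 95.7 in mouse 4 to 181 in mouse 7. Smad7 had a negative slope on the fibroblast score, -0.27 ± 0.085 (SE, n = 8), and did not pass (limma adjusted p = 0.155).

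Ccn2, connective tissue growth factor and a classical TGF-beta target, was highest in mouse 5, at 1854 normalized counts, and between 623 and 1280 in the others. In that mouse Tgfbr1 (1797), Smad3 (982), Tgfb1 (130) and Ltbp1 (415) were lowest of all mice, and Thbs1 (1635) was highest. Tgfb2 (732) was below mice 2 and 7, and Smad7 (171) was below mouse 7 only. These values come from 1 mouse, and a link between them and Ccn2 was not tested. On the fibroblast score the slope of Ccn2 was 0.13 ± 0.15 (SE, limma adjusted p = 0.708), and it was 0.29 without mouse 2 and -0.081 without mouse 8.

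Among the members themselves, 31 of 45 pairs correlated positively across the 8 mice, with a median r of 0.225. The same share over pairs of all genes was not computed, and the pairs reuse the same genes and mice. The count is therefore not read as a relation particular to the members. The highest r was between Tgfb1 and Ltbp1 (r = 0.799, exact permutation p = 0.0279, with a rho of 0.833 and p = 0.0154), which was 0.637 without the 2 mice farthest in Tgfb1, and the lowest was between Tgfbr3 and Ltbp3 (r = -0.617, exact permutation p = 0.0718). No pair passed after adjustment over the 15134 other genes, and for Tgfb1 and Ltbp1 the adjusted p was 0.512 counted from Tgfb1 and 0.853 counted from Ltbp1. Values of all genes of a mouse share its library, size factor and tissue piece. The spread of Tgfb1 between mice was also close to counting error, which limits its correlations.

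For each member the 2 protein-coding genes with the most similar pattern over the 8 mice were named, by Pearson's r among 9724 genes whose mean reached 100 normalized counts (9725 for Ltbp2). For Tgfb1 these were Ttc3 (r = 0.967) and Smc1a (0.964), for Tgfb2 Eml5 (0.992) and Ppp1r8 (0.975), and for Tgfb3 Atg2b (0.977) and Cog1 (0.947). For Tgfbr1 they were Pum3 (0.983) and Stat5a (0.950), for Tgfbr2 F13a1 (0.980) and Prelp (0.973), and for Tgfbr3 Gak (0.986) and Fam124a (0.980). For Ltbp1 they were Dglucy (0.945) and Gbp7 (0.928), for Ltbp2 Fam120a (0.947) and Neurl4 (0.941), for Ltbp3 Ehbp1l1 (0.952) and Hmgb3 (0.945), and for Ltbp4 Slc5a3 (0.988) and Secisbp2l (0.982). The 20 genes are all different, and none of them is another member. They were picked as the highest of many values over 8 mice, and for no member did any gene pass an adjusted exact permutation p of 0.05. The spread of Tgfb1 between mice was close to counting error, and Ltbp2 had few counts, which limits what their matches show. F13a1, coagulation factor XIII A, and Prelp both share with Tgfbr2 the low values of mice 7 and 8. These were 281 and 342 normalized counts for F13a1 and 379 and 328 for Prelp, and the cell type behind them was not tested. Ehbp1l1 lies 14587 bases from Ltbp3 on chromosome 19.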

How the data were processed

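Poly-A mRNA libraries of whole muscle from 8 mice were sequenced on an Illumina NextSeq. The authors trimmed reads with fastp after FastQC, aligned them to GRCm38 with STAR, and counted reads per gene with summarizeOverlaps. The annotation release, strand setting and treatment of multi-mapping reads are not given in the sources used here. The deposited values are counts divided by 1 size factor per library (0.906 to 1.20), a normalized signal. Whole reads were recovered for 100% of values within 0.01 of a read.

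Gene IDs were matched to GENCODE M21 (GRCm38), with 55227 of 55487 found. The 10 members and the marker and pathway lists were chosen with earlier results of these data known. Genes that reached 10 counts in each library were tested with limma 3.58.1 on log2(normalized count + 1) against each marker score, with the markers of that score left out, and edgeR 4.0.16 tested the recovered counts. R 4.3.3 and Python 3.11.15 were used. Exact permutation tests were two-sided over 40320 pairings, and adjusted p-values are Benjamini-Hochberg. In data simulated for the fibroblast score over 15127 genes, limma recovered 69% of 100 genes with a slope of 0.5 and 100% of 100 genes with a slope of 1. Of its calls there, 6.11% were false. Each gene was simulated independently, whereas the genes of a real mouse share its library and tissue piece, so these rates may not hold for the real data. No member had a fibroblast slope as large as 0.5, so neither rate covers the members. Some genes of the lists are not reported here. Named were all members, preset genes of the pathway list and its called genes with the largest slopes on the fibroblast score, and the 2 genes most similar to each member. Alternatives were another pseudocount, TMM factors, no count filter, a median score, another length, and leaving out mice.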

Additional observations from a re-analysis of the deposited data

Results flagged for a closer look

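Of 57 sets of 8 values examined for a single distant sample, 1 held one, against about 1 in 20 by chance. The share of Ltbp2 in the latency protein level per kb was 1.78% in mouse 4, against 0.473% to 1.04% in the others (a gap of 0.562 of the range).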

How the results depend on the processing

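The levels of the 10 members moved by less than 1 SD in all 30 values recomputed with TMM factors, library totals or a median over mice. With the longest transcript as the length, 6 of 10 ranks were kept and the share of Ltbp4 was 41.0%, and from counts the shares of Tgfb3 and Ltbp4 were 60.1% and 38.6%. TMM factors kept all 10 ranks. On the fibroblast score, 106 genes were called in limma, 66 in edgeR, 272 with a median score, 0 by exact permutation (2464 at an unadjusted p below 0.05) and 0 in limma without mice 7 and 8, and between 0 and 166 with 1 mouse left out. The count fell to 10, 9, 51, 39 and 0 without mouse 1, 2, 6, 7 or 8 and was 166 without mouse 3. On the macrophage score, 36 were called in limma, 4 in edgeR, 74 without the filter, 62 with a median score, 0 by exact permutation (2133 at an unadjusted p below 0.05), 0 without mice 7 and 8, and between 0 and 42 with 1 mouse left out. That count was 2, 2, 19, 3, 0 and 0 without mouse 1, 2, 3, 6, 7 or 8. Leaving out mice 7 and 8 together was chosen after seeing the data, and the cause of these changes was not tested. The 1 member called in any setting was Tgfbr2: 1 with a median score on the fibroblast score, and 1 with TMM factors, without the filter, with a median score or without mouse 4 on the macrophage score (0 to 1 with 1 mouse left out). On the endothelial score 0 genes were called in every setting.

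Of 606 slopes recomputed for named genes, 25 changed sign, none of them in a called gene. On the fibroblast score without mice 7 and 8, slopes were 0.27 for Tgfb2, -0.0074 for Tgfb3, 0.092 for Ltbp3, -0.25 for Ccn2 and -0.26 for Thbs1, and that of Smad3 was -0.012 with a median score. On the macrophage score without both mice, the slope of Ltbp3 was 0.037. With 1 mouse left out, fibroblast slopes that changed sign ran from -0.21 to 0.082 for Tgfb2, -0.025 to 0.10 for Tgfb3, -0.032 to 0.081 for Tgfbr1, -0.032 to 0.041 for Ltbp3, -0.081 to 0.29 for Ccn2 and -0.13 to 0.16 for Smad3. Endothelial slopes ran from -0.0035 to 0.045 for Tgfb1, -0.099 to 0.16 for Tgfb2, -0.074 to 0.014 for Tgfb3 and -0.045 to 0.11 for Ltbp1, and macrophage slopes from -0.0013 to 0.13 for Tgfb3 and -0.026 to 0.13 for Tgfbr1. No paired analysis was possible because the 8 mice form a single group. Depth limits Ltbp2, with 13 counts in its lowest library.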
